A study of Schizosaccharomyces pombe with 9 samples.

Results

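The third of 3 *ecl123*Δ RNA-seq libraries of fission yeast (*Schizosaccharomyces pombe*) differed from the other two in 101 protein-coding genes, of which 68 were higher in it and 33 were lower. These genes were chosen by their measured values. Counts were scaled by the total of each library to counts per 1000000 (CPM), and a coding gene with at least 10 CPM in any *ecl123*Δ library was taken where log2 of (CPM + 1) in replicate 3 differed by at least 0.8, in one direction, from both replicate 1 and replicate 2. They are 101 of 4669 coding genes that reached this level and of 5165 coding genes in the table, so that the rule took 1.46% as higher and 0.707% as lower. The balance between the directions rests on the scaling, since with TMM effective library sizes the same rule took 38 higher and 44 lower genes and with RLE size factors 44 and 38. Because the choice used the *ecl123*Δ values, the differences between those libraries are described here without a test.

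The study asked what the small Ecl proteins, which are known for extending chronological lifespan when overproduced, contribute to gene expression. It compared poly(A)+ RNA from log-phase cultures grown in YES (rich) medium at 30 °C, with 3 libraries for each of 3 haploid *h-* strains. The WT strain had all 3 *ecl* genes, the *ecl3*Δ strain carried *ecl3*Δ::kanMX, and the *ecl123*Δ strain carried *ecl1*Δ::hygMX, *ecl2*Δ::natMX and *ecl3*Δ::kanMX, each an antibiotic resistance cassette in place of the gene. All of them, the WT included, carried *leu1-32*, *ura4-D18*, *his3-D1* and an *ade6* allele (*ade6-m216* in the WT), which make the cells auxotrophic, and each genotype was represented by a single strain. Within these labels nothing sets replicate 3 of *ecl123*Δ apart from replicates 1 and 2.

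Total counts ran from 23254907 to 34871124 per library. As a check of the labels, *ecl3* had 23, 15 and 42 counts in WT, 0 in each *ecl3*Δ library and 0, 0 and 1 in *ecl123*Δ replicates 1, 2 and 3. The annotated mRNAs of *ecl1* and *ecl2* (820 and 1509 nt) extend far beyond their coding sequences (243 and 255 nt), so counts over them do not check those deletions. *ecl1* had 468, 393 and 489 counts in WT and 2840, 2640 and 3557 in *ecl123*Δ, so its counts were higher, not lower, in the strain labelled as lacking it. *ecl2* had 1580, 1227 and 1830 counts in WT and 2242, 1752 and 2358 in *ecl123*Δ. Between *ecl123*Δ replicate 3 and replicates 1 and 2, the squared count difference per gene was 242 and 213 times that of sampling noise, against 7.63 to 85.5 for the other pairs of replicates. The study calls the libraries of a strain biological replicates.

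Ribosomal proteins are the most heavily transcribed protein class of a growing yeast cell, and many of them are so small that the whole mRNA is among the shortest of the cell. At the other end stand mRNAs for very large enzymes and scaffolds such as glucan synthases, fatty acid synthase and TOR kinase.

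Genes higher in *ecl123*Δ replicate 3 were mostly long and functionally mixed. They included membrane transporters, cell wall and glycosylation enzymes, kinases and transcription factors, at mean log2 ratios of 0.81 to 1.76 over replicates 1 and 2 (1.75- to 3.39-fold). The lower genes were mostly cytosolic ribosomal proteins, 21 of 33, with mean log2 ratios of -0.81 to -1.85 (1.75- to 3.60-fold lower). Summed, the 68 higher genes held 1.44% of the counts in *ecl123*Δ replicate 3 and 0.744% to 1.06% in the other 8 libraries. The 33 lower genes held 1.78% in that library and 3.37% to 3.69% in the other 8. For 66 of the 68 higher genes replicate 3 lay above all 8 other libraries, and for all 33 lower genes it lay below all 8. Among all measured coding genes those shares were 40.4% and 23.1%, and since the rule used the same libraries nothing is read from the counts. The exceptions among the higher genes were *bgs3* and *rsn1*. CPM are shares of the RNA of a whole culture, so fewer cells with an mRNA and less of it per cell cannot be told apart.

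**Figure D1:**
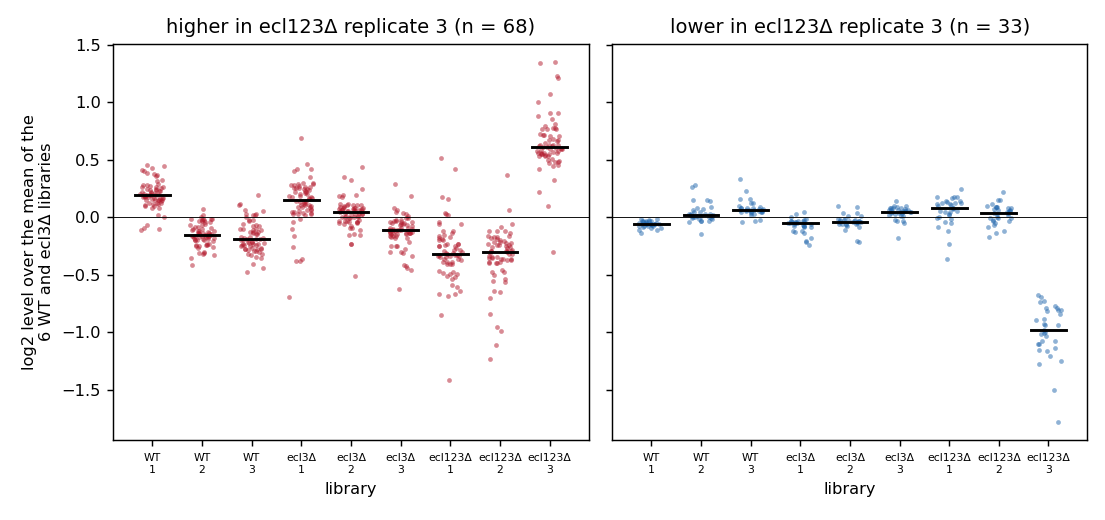
Level of each of the 68 higher genes (left) and 33 lower genes (right) in the 9 libraries, as log2 of (CPM + 1) over the mean CPM of the 6 WT and *ecl3*Δ libraries. Points are genes and bars are medians. The medians of *ecl123*Δ replicate 3 are 0.61 and -0.97, whereas those of the other 8 libraries lie between -0.31 and 0.19 for the higher genes and between -0.06 and 0.08 for the lower genes.

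Small ribosomal proteins made up most of the lower genes. The largest difference was that of *rpl4102*, which encodes eL41, the smallest protein of the 60S subunit, from a 233-nt mRNA. *rpl4102* was at 1124, 1173 and 1196 CPM in WT, 1090, 1102 and 1212 CPM in *ecl3*Δ and 1268, 1142 and 334 CPM in *ecl123*Δ. The other 8 libraries were thus close together and *ecl123*Δ replicate 3 alone was low, with a mean log2 ratio of -1.85. Its paralog *rpl4101*, on an mRNA of 346 nt, was at 2296, 2379 and 2480 CPM in WT, 2209, 2282 and 2356 CPM in *ecl3*Δ and 2387, 2286 and 1012 CPM in *ecl123*Δ. *rps29*, encoding the 40S protein uS14, was at 1337, 1409 and 1456 CPM in WT, 1366, 1327 and 1476 CPM in *ecl3*Δ and 1446, 1386 and 578 CPM in *ecl123*Δ. These 2 genes had ratios of -1.21 and -1.29, and their 8 other libraries again stayed close together.

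Both genes of an isoform pair were among the lower genes for eL41, eL38 (*rpl3801* and *rpl3802*), eS30 (*rps3001* and *rps3002*), eS28 (*rps2801* and *rps2802*), eL43 (*rpl4301* and *rpl4302*) and eS25 (*rps2501* and *rps2502*). Of the L36 pair *rpl3602* was among them at -1.13, while *rpl3601*, at -0.78, fell short of the limit. Of the L37 pair, *rpl3703* was among them at -0.82 and *rpl3702* was not, since its smaller ratio was -0.67. Of 3 genes for the acidic stalk protein P2, *rpp202* (-0.81) and *rpp203* (-0.94) were among the lower genes and *rpp201* (-0.75) was not. The remaining members, *rps21*, *rps27*, *rpl29* and *rpl39*, are the only genes of their names here, like *rps29*, with ratios from -0.88 for *rps27* to -1.12 for *rpl29*. *rps29* and *rps27* are also direct neighbours in the annotation.

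The 21 genes were the short end of their class. Of 138 measured cytosolic ribosomal protein genes, 137 had a mean log2 ratio below 0 and the median was -0.56, against 0.12 for all measured coding genes. Of the 15 with an mRNA of up to 400 nt, 13 were among the lower genes, and their median ratio was -1.08. Of the 27 above 400 and up to 500 nt, 8 were, at a median of -0.73. None of the longer ones were, with medians of -0.59 up to 700 nt, -0.39 above 700 and up to 900 nt and -0.24 above 900 nt. Across the 138 genes Spearman's rho of ratio and length was 0.92, a description over genes of the same libraries and not over independent replicates. All cytosolic ribosomal protein genes together took 20.2% of the counts in *ecl123*Δ replicate 3 and 26.8% to 29.5% in the other 8 libraries.

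**Figure D2:**
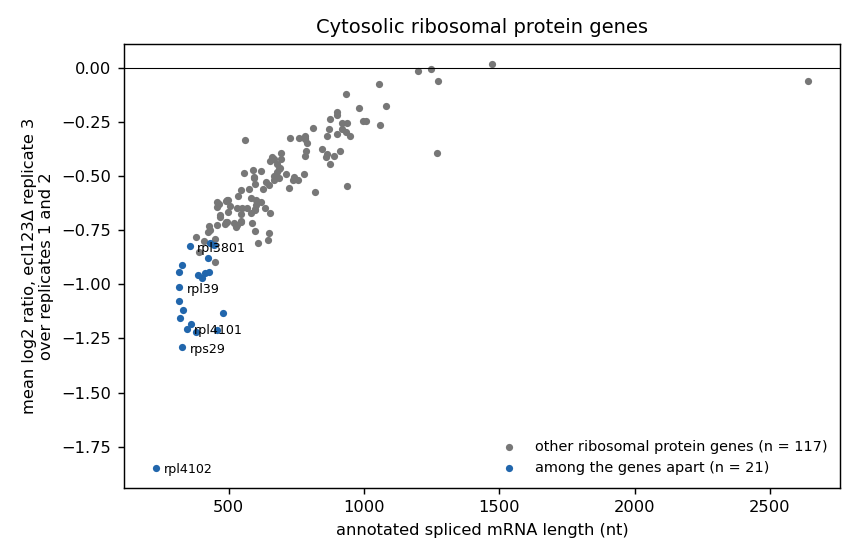
Mean log2 ratio of *ecl123*Δ replicate 3 over replicates 1 and 2 (vertical axis) against annotated spliced mRNA length in nt (horizontal axis) for 138 cytosolic ribosomal protein genes. Each point is a gene. The 21 genes that the rule took, in blue, are all at or under 479 nt, and the ratios approach 0 with growing length.

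Other lower genes also encoded very small proteins. Of 50 measured genes of the respiratory chain and ATP synthase, 3 were lower (6%, against 0.707% of all measured coding genes). The class had a median mRNA of 876.5 nt. The 3 were *cox8*, a cytochrome c oxidase subunit, and *atp18* and *atp19*, subunits of the F0 part of the ATP synthase. *cox8*, on an mRNA of 252 nt, was at 94.8, 111 and 109.8 CPM in WT, 95.8, 107 and 108 CPM in *ecl3*Δ and 98.4, 98.6 and 46.6 CPM in *ecl123*Δ. *atp19* was at 105, 113 and 118 CPM in WT, 89.9, 107 and 104 CPM in *ecl3*Δ and 97.3, 94.3 and 48.8 CPM in *ecl123*Δ, and *atp18* had a mean log2 ratio of -0.91. In all 3 genes replicate 3 of *ecl123*Δ was below every other library. *tom6*, named for a small subunit of the translocase of the outer mitochondrial membrane, was at 37.1, 39.8 and 46.4 CPM in WT, 36.1, 42.04 and 34.7 CPM in *ecl3*Δ and 33.5, 39.2 and 13.2 CPM in *ecl123*Δ. At -1.39 it had the second-largest difference of the lower genes. *mrpl38*, a mitochondrial ribosomal protein gene, had a ratio of -0.89, and it was 1 of 11 measured in that class.

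*smd3*, a core protein of spliceosomal Sm rings, had a ratio of -0.92, and *lsm6*, a subunit of the Lsm ring that binds U6 snRNA, had -0.87. They were 1 of 7 measured Sm genes (median -0.47, -0.92 to -0.08) and 1 of 8 Lsm genes (median -0.45, -0.87 to 0.57). The rule took 0.707% of all measured coding genes as lower, and nothing is read from single genes. Among the other *lsm* genes, *lsm7* and *lsm5* had ratios of -0.58 and -0.56, *lsm4* on a 2718-nt mRNA had -0.08, and *lsm8* on a 309-nt mRNA had 0.57. *dss1*, a small adaptor of the proteasome, was at -0.82. The 3 genes of uncharacterized products, *SPBC21B10.15*, *SPAC23C4.04c* and *SPBC1685.17*, were at -0.94, -1.01 and -1.03. The only lower gene on an mRNA longer than the 599 nt of *dss1* was *dgc1*, annotated as D-glutamate cyclase, on an mRNA of 1172 nt. *dgc1* was at 9.996, 12.1 and 10.6 CPM in WT, 11.1, 9.17 and 12.02 CPM in *ecl3*Δ and 12.4, 12.7 and 6.41 CPM in *ecl123*Δ. Its ratio of -0.87 was 0.75 below the median of coding genes of similar length.

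**Figure D3:**
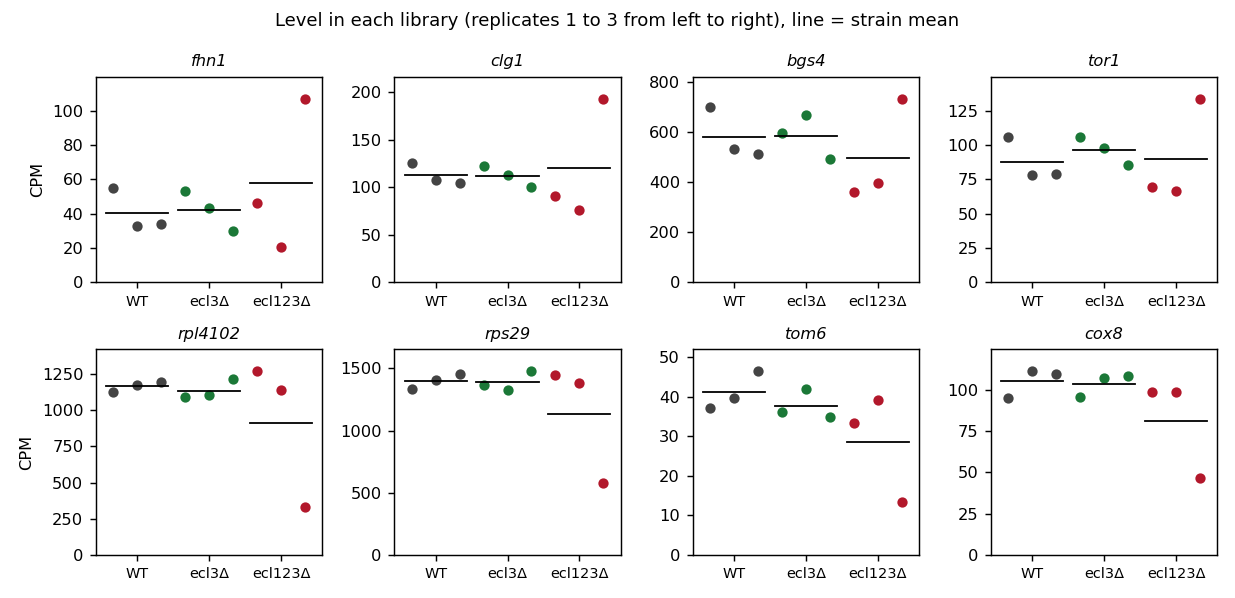
CPM of 4 higher genes (top) and 4 lower genes (bottom) in each library, with replicates 1 to 3 of each strain from left to right. Points are libraries and lines are strain means, and every axis starts at 0. In each panel *ecl123*Δ replicate 3 is the outermost point, with 107 CPM for *fhn1* and 334 CPM for *rpl4102*.

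Among the higher genes, *fhn1* was farthest from the other *ecl123*Δ libraries. It encodes an assembly protein of eisosomes, furrow-like domains of the plasma membrane. *fhn1* was at 55.2, 32.8 and 33.9 CPM in WT, 52.97, 43.1 and 29.8 CPM in *ecl3*Δ and 46.3, 20.4 and 107 CPM in *ecl123*Δ. Replicates 1 and 2 of *ecl123*Δ also differed from each other, and replicate 3 was the highest of the 9 libraries, with a mean ratio of 1.76. *clg1*, which encodes a cyclin, was at 126, 108 and 105 CPM in WT, 122.8, 113 and 100.5 CPM in *ecl3*Δ and 91.2, 75.8 and 193 CPM in *ecl123*Δ. *ted1*, annotated as a phosphoprotein phosphatase, was at 20.03, 17.4 and 15.5 CPM in WT, 21.2, 15.1 and 18.3 CPM in *ecl3*Δ and 14.3, 16.3 and 36.8 CPM in *ecl123*Δ. For both genes replicate 3 stood above all other libraries, at ratios of 1.20 and 1.22. Replicates 1 and 2 of *ecl123*Δ were the lowest libraries for *clg1* and overlapped the other strains for *ted1*.

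Membrane transporters gave 11 of the 68 higher genes, out of 188 measured (5.85%, against 1.46% of all measured coding genes). The class had a median mRNA of 2249.5 nt, against 1746 nt for all measured coding genes. *abc2* and *abc4* encode ABC transporters of the vacuole, which carry glutathione conjugates, and had ratios of 1.06 and 0.88. The other 2 measured *abc* genes, *abc1* and *abc3*, are of similar length and had ratios of 0.57 and 0.64. *abc2* was at 167, 113 and 110.5 CPM in WT, 134, 138 and 108 CPM in *ecl3*Δ and 81.9, 82.2 and 172 CPM in *ecl123*Δ. Here *ecl123*Δ replicate 3 barely exceeded WT replicate 1, and replicates 1 and 2 of *ecl123*Δ were the lowest libraries of all. *mpc2*, a subunit of the mitochondrial pyruvate carrier, was at 24.99, 16.6 and 17.8 CPM in WT, 30.4, 21.6 and 23.2 CPM in *ecl3*Δ and 22.8, 23.6 and 48.3 CPM in *ecl123*Δ. On its 966-nt mRNA the ratio was 1.03. The 2 annotated polyamine transporters *SPBC409.08* and *SPBC36.01c* had ratios of 1.06 and 0.91, the TRP-like channel gene *trp1322* 1.06, and the annotated calcium transporters *SPAC24H6.13* and *SPAC2G11.09* 1.14 and 0.93. *SPAC24H6.13* was at 62.2, 50.96 and 44.3 CPM in WT, 55.8, 47.3 and 53.8 CPM in *ecl3*Δ and 75.4, 48.3 and 134 CPM in *ecl123*Δ. The triose phosphate transporter gene *pet2* had 0.90 and *SPBC887.17*, a transmembrane transporter, 0.83.

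The calcium transporter gene *rsn1* was the exception in this class. *rsn1* was at 46.5, 33.6 and 32.5 CPM in WT, 20.6, 43.6 and 26.7 CPM in *ecl3*Δ and 12.1, 13.9 and 27.4 CPM in *ecl123*Δ. Replicate 3 of *ecl123*Δ was above the other *ecl123*Δ libraries yet below all 3 WT libraries, so the ratio of 1.02 here separated libraries of one strain that all lay low.

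Cell wall and glycosylation enzymes formed the next group, with 8 of 81 measured glycoside hydrolases and glycosyltransferases (9.88%) and 3 of 17 genes on a cell wall list. The share over all measured coding genes was 1.46%, and the 81 had a median mRNA of 2304 nt. *bgs4*, encoding an essential catalytic subunit of 1,3-β-glucan synthase, was at 701.1, 531 and 511 CPM in WT, 598, 668 and 490.2 CPM in *ecl3*Δ and 362, 396 and 731 CPM in *ecl123*Δ. *bgs3*, a second catalytic subunit of that activity, was at 229, 161 and 150.5 CPM in WT, 174, 224 and 134 CPM in *ecl3*Δ and 98.96, 99.4 and 192 CPM in *ecl123*Δ. For *bgs3*, WT replicate 1 and *ecl3*Δ replicate 2 were above *ecl123*Δ replicate 3. The 2 other glucan synthase genes, *bgs1* and *bgs2*, had ratios of 0.85 and 0.68, below the limit in at least one of the comparisons, and all 4 have mRNAs of 6069 to 7794 nt. *gas5*, a glucanosyltransferase that remodels glucan, had a ratio of 1.00, the chitinase gene *cts2* 0.93 and the β-glucosidase gene *adg3* 0.94. Of the enzymes of glycan assembly, *ogm4* (O-mannosylation in the ER) had 1.00, *gmh3* (a galactosyltransferase) 0.93 and *alg11* (N-glycan precursor synthesis) 0.82. *pvg1* and *pvg5*, which act in adding pyruvate to galactose residues of the cell surface, had 0.98 and 1.19. *pvg1* was at 181, 165 and 167 CPM in WT, 156, 175 and 159 CPM in *ecl3*Δ and 129.8, 127 and 255 CPM in *ecl123*Δ, a gene whose 6 WT and *ecl3*Δ libraries lay within a narrow range. *adg2* and *adg3* were also the 2 of 21 genes on a list of periodic cell cycle genes, and *adg2* lies beside *ted1* in the annotation.

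Signaling and transcription genes followed, in classes with median mRNAs of 2121.5 nt (kinases and phosphatases) and 2429.5 nt (transcription factors). Their shares stand beside 1.46% of all measured coding genes. Protein kinases and phosphatases gave 4 of 136 measured (2.94%): *tor1*, the catalytic kinase of TORC2, with 0.96, *sck2*, an S6 kinase family member, with 0.85, *pit1* with 1.10 and *ted1*. *tor1* was at 106, 78.3 and 78.7 CPM in WT, 106, 98.1 and 85.6 CPM in *ecl3*Δ and 69.5, 66.8 and 133 CPM in *ecl123*Δ. Its relative *tor2*, the kinase of TORC1, had 0.74 on a similar mRNA of 7268 nt. Chosen after their values were seen, *cyr1* (adenylate cyclase) had 0.84 and *git5* (a G protein β subunit) 1.29, whereas *git1*, *git3* and *git7*, which were not taken by the rule, had 0.51, 0.61 and -0.32. Transcription factors gave 4 of 116 (3.45%): *sfp1* with 1.27, *pho7*, the activator of phosphate-responsive genes, with 0.98, *sre2* with 0.93 and *SPBC530.11c* with 0.96. *pho7* was at 49.5, 49.6 and 51.3 CPM in WT, 54.3, 56.5 and 50.8 CPM in *ecl3*Δ and 35.7, 41.5 and 76.9 CPM in *ecl123*Δ. The 9 measured genes of a phosphate acquisition list included no other member, and their median ratio was 0.49.

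The genes of the next sentences were named after their values were seen and form no list. *fas1*, the β subunit of fatty acid synthase, was at 1294, 981 and 897 CPM in WT, 1287, 1122 and 1036 CPM in *ecl3*Δ and 941, 936 and 1700 CPM in *ecl123*Δ. *fas2*, which encodes the α subunit, had 0.78 against 0.86 for *fas1*. *ura1*, for the first enzymes of pyrimidine synthesis, was at 954, 659 and 582 CPM in WT, 1057, 738 and 738 CPM in *ecl3*Δ and 809.8, 699.5 and 1451 CPM in *ecl123*Δ. *chc1*, the clathrin heavy chain on an mRNA of 5260 nt, was at 575, 432 and 429 CPM in WT, 519, 509.6 and 439 CPM in *ecl3*Δ and 383, 383 and 707 CPM in *ecl123*Δ. The partner light chain gene *clc1*, on an mRNA of 1046 nt, had a ratio of -0.13 against 0.88 for *chc1*. *tra1*, a subunit of the SAGA transcription coactivator with the longest mRNA of the 101 genes (11069 nt), had 0.86, and its relative *tra2* 0.71. *nup189* and *nup85* were 2 of 20 measured *nup* genes of the nuclear pore, whose ratios ran from 0.05 to 0.92 with a median of 0.53. *utp10* and *utp20* were 2 of 20 *utp* genes of pre-rRNA processing, with ratios from -0.38 to 0.90 and a median of 0.20. The rule took 1.46% of all measured coding genes as higher, and nothing is read from these small counts. *vps1302* had 1.10 against 0.67 for its relative *vps1301*. *crm1* (nuclear export), *spt6* (transcription elongation), *ubr11* and *rkr1* (ubiquitin ligases), *mus7* (DNA repair) and *spo15* (spindle pole body) had ratios of 0.81 to 0.93. Co-chaperones were represented by *tti1* with 1.05 and *mib1* with 1.00, 2 of 94 measured chaperone genes (2.13%, near the 1.46% of all measured coding genes).

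*but2*, which gives the But2 family its name, had a ratio of 0.96. It was at 772, 583 and 552 CPM in WT, 806, 669.7 and 627 CPM in *ecl3*Δ and 549, 548 and 1066 CPM in *ecl123*Δ. Replicate 3 of *ecl123*Δ was above all 8 others, and the ranges of the other libraries overlapped only between WT and *ecl3*Δ.

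No gene of the 101 was on the lists for glycolysis and fermentation (15 measured), stress response (27), heat shock and chaperones (18), iron homeostasis (9), copper and zinc (11), amino acid synthesis (37), nitrogen and amino acid uptake (15), mating and pheromone signaling (18), histones (11), TCA cycle (14), autophagy (21) or ergosterol (20). The rule took 1.46% and 0.707% of measured coding genes, so lists of this size would hold few or none at those shares, and nothing is read from their absence. Of the mating type markers, 2 M-cell-specific genes had a median ratio of 0.08 and 3 P-cell-specific genes 0.31. In all, 64 of the 101 genes were in at least 1 list or class and 37 were in none.

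The higher and the lower genes differed in mRNA length, which the rule did not use. The median annotated spliced mRNA was 3490.5 nt (527 to 11069) for the higher genes, 386 nt (233 to 1172) for the lower genes and 1746 nt for 4667 measured coding genes with an annotated length. The interquartile range of the higher genes was 2665.25 to 5288.5 nt. Of the 68 higher genes, 34 were among the longest 10% of coding genes (3547 nt or more), and of the 33 lower genes 32 were among the shortest 10% (784 nt or less). No gene with an mRNA of up to 500 nt was among the higher genes and 30 of 146 were among the lower ones (20.5%). Above 5000 nt, 19 of 131 were higher (14.5%) and 0 were lower.

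**Figure D4:**
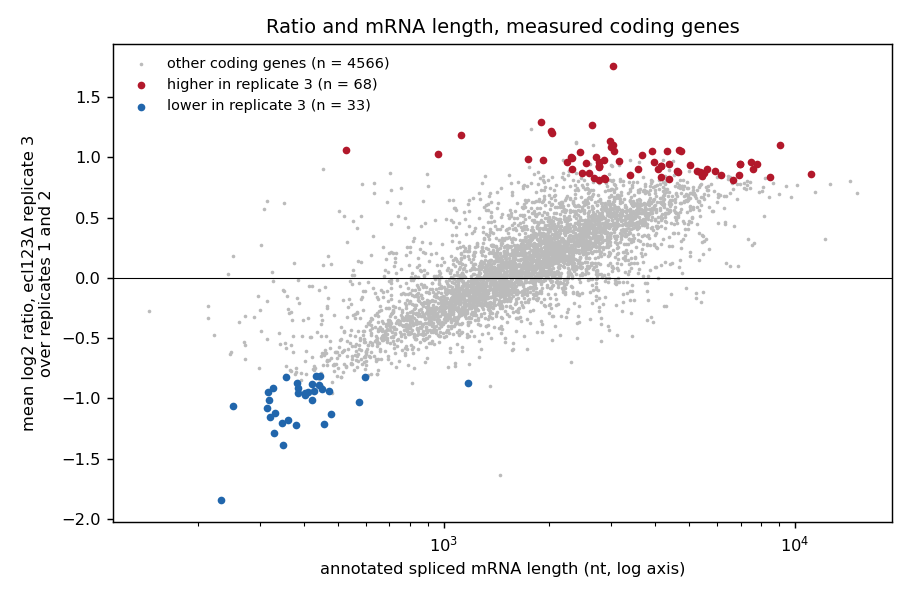
Mean log2 ratio of *ecl123*Δ replicate 3 over replicates 1 and 2 (vertical axis) against annotated spliced mRNA length (horizontal log axis, nt) for 4667 measured coding genes. Red and blue points are the 68 higher and 33 lower genes, and grey points are other coding genes. Ratios climb from a median of -0.46 in the shortest 10% to 0.59 in the longest 10%. Of the higher genes 34 are in the longest 10%, and of the lower genes 32 are in the shortest 10%. Some lie off the band, 29 higher and 11 lower genes being at least 0.5 from the median for their length.

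The relation with length held over the genes that the rule did not take as well. Across the 4667 coding genes Spearman's rho of the mean ratio and mRNA length was 0.76, and Pearson's r with log10 length was 0.75, again over genes of the same 3 libraries. In 10 bands of nearly equal gene number, from the shortest to the longest mRNAs, the median ratio was -0.46, -0.26, -0.13, -0.01, 0.08, 0.18, 0.24, 0.35, 0.45 and 0.59. Of 146 genes with up to 500 nt, 134 had a ratio below 0, and of 131 above 5000 nt, 127 had a ratio above 0. Among mRNAs of up to 500 nt, 42 ribosomal protein genes had a median of -0.82, with all 42 below 0, and 104 others had a median of -0.49. Of those others, the 23 with a WT mean of at least 100 CPM had a median of -0.72, with all 23 below 0, and the other 81 had -0.35. Of these short genes, 106 had introns, with a median of -0.72 and 30 of the lower genes, and 40 had a single exon, with a median of -0.33 and none of them. This split did not set the ribosomal protein genes or the highly expressed genes apart, so exon number was not separated from class or level. Of all 101 genes, 50 of 68 higher genes (73.5%) had a single exon, against 2 of 33 lower genes (6.06%) and 50.4% of measured coding genes. GC content had medians of 37.5% in the higher, 40.3% in the lower and 37.3% in all measured coding genes.

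RNA classes outside the coding genes showed a gradient in the same direction, but at lower ratios. The median ratio was -0.93 for 14 snRNA and snoRNA genes, with 13 below 0. Long noncoding RNAs had medians of -0.84 up to 500 nt (7 genes), -0.61 above 500 and up to 1000 nt (50), -0.28 above 1000 and up to 2000 nt (137) and -0.12 above 2000 nt (144). Those above 2000 nt had a median length of 2765 nt, and 92 of the 144 were below 0. Coding genes of 2764 to 3542 nt had a median of 0.45, with 93.3% above 0. Summed snRNA and snoRNA counts were 0.0234% of the total in *ecl123*Δ replicate 3 and 0.0380% to 0.0515% in the other 8 libraries. The libraries were made from poly(A)+ RNA, so counts of so small a share may not follow the levels of snRNA and snoRNA. Annotated RNA length thus moved with the ratio across coding genes and across the long noncoding classes, and its part in the differences was not tested. Within the 68 higher genes Spearman's rho of ratio and length was -0.41. The rule chose these genes by the ratio, which its limit cuts from below, so nothing is read from this value. Single genes, chosen after their values were seen, lay off the trend. *pvg5*, with the shortest mRNA of 4 *pvg* genes (1119 nt), had the largest ratio of them (1.19). Those of *pvg3* (1590 nt), *pvg1* (1922 nt) and *pvg2* (2180 nt) were 0.27, 0.98 and 0.60. *git5* (1897 nt) had 1.29, against 0.61 for *git3* (3763 nt) and 0.51 for *git1* (3806 nt). *git7*, on the shortest *git* mRNA (1276 nt), had -0.32. *lsm8* was above 0 on one of the shortest mRNAs. *pvg5*, *git5* and *lsm8* were all low, at 19.1 CPM or less in every library.

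To set the genes beside others of their length, each ratio was compared with the median ratio of the 200 coding genes nearest in length. At the 2 ends the same 200 shortest or longest genes served for all. Most lower genes thus shared a median of -0.60 and the longest higher genes one of 0.68. Within these ends the distances are not matched for length. All 68 higher genes lay above that median and all 33 lower genes below it, which the choice of extreme ratios brings with it. The distance reached 0.5 on the log2 scale in 29 of the 68 and 11 of the 33, and in 6.32% of all measured coding genes. The largest distances were those of *nbl1* (1.66, on a 527-nt mRNA), *pvg5* (1.33), *fhn1* (1.30), *mpc2* (1.28), *git5* (1.09), *ted1* and *clg1* (0.97 each) and *sfp1* (0.90). *nbl1*, a borealin-domain protein gene, was at 8.62, 7.998 and 8.95 CPM in WT, 8.78, 8.704 and 8.44 CPM in *ecl3*Δ and 6.63, 8.03 and 16.4 CPM in *ecl123*Δ, with raw counts of 186 to 472 per library. Of the *ecl123*Δ libraries, only replicate 3 brought *nbl1*, *pvg5* and *git5* to the 10 CPM minimum of the rule. Among the lower genes the largest distances were those of *rpl4102* (-1.24), *tom6* (-0.78), *dgc1* (-0.75) and *rps29* (-0.69). For *dgc1* only replicates 1 and 2 reached that minimum. By contrast *fas1*, *tra1*, *chc1*, *cyr1* and *ubr11* were within 0.13 to 0.21 of the median they were compared with.

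When the limit of 0.8 had to be passed over both replicate 1 and replicate 2 separately, after subtracting the same median of genes of similar length from each ratio, 28 higher and 7 lower coding genes were found. Of these, 5 of the 28 (*nbl1*, *pvg5*, *mpc2*, *ted1* and *clg1*) and 1 of the 7 (*rpl4102*) were among the 101. By the mean ratio alone, 9 of the 68 and 1 of the 33 were at least 0.8 from that median. The other higher genes found in this way had mRNAs of 303 to 1307 nt, such as *SPCC191.03c* (453 nt, ratio 0.90) and *atg101* (635 nt, ratio 0.79), and the other lower ones had mRNAs of 2308 to 3939 nt. Most of the 68 were longer than the former, and the 33 were shorter than the latter. A low gene could meet the 10 CPM minimum through replicate 3 alone, as *nbl1*, *pvg5* and *atg101* did. Nothing is therefore read from the balance of 28 and 7.

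The 6 WT and *ecl3*Δ libraries did not enter the rule and were examined for the same genes. Comparing *ecl3*Δ with WT by edgeR's quasi-likelihood test on these 6 libraries, with Benjamini-Hochberg adjustment, none of the 101 genes was called at an adjusted p of at most 0.05, 2-fold and a mean normalized count of 100. Among all 5010 tested coding genes 0 were called (0%), also by DESeq2. At an unadjusted p under 0.05 there were 3 of the 101, against 204 coding genes (4.07%), and the smallest adjusted p of the 101 was 0.824. Those 3, chosen after their values were seen, were *SPBC36.01c* with a log2 fold change of 0.42, *pus3* (tRNA pseudouridine synthase) with 0.21 and *rpp203* with 0.10. The median log2 fold change was 0.06 for the higher and -0.0045 for the lower genes. Without WT replicate 1, 20 of the 101 genes had an unadjusted p under 0.05, against 257 of 5020 coding genes (5.12%), and the median of the higher genes was 0.21. Without *ecl3*Δ replicate 2 the test called 42 coding genes, none of them among the 101, and 12 of the 101 had an unadjusted p under 0.05, against 1209 of 5016 coding genes (24.1%). Without WT replicate 2, WT replicate 3, *ecl3*Δ replicate 1 or *ecl3*Δ replicate 3 there were 0, 1, 0 and 3 of the 101. Over all coding genes there were then 76, 94, 66 and 118.

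Between libraries of one strain the 101 genes still moved together, on a smaller scale, as did long and short coding genes in general. WT replicate 1 was the highest WT library for 65 of the 68 higher genes and the lowest for 31 of the 33 lower genes. Over all measured coding genes those shares were 36.8% and 40.8%. *ecl3*Δ replicate 1 was the highest of its strain for 51 of the 68 and the lowest for 21 of the 33, against 30.8% and 38.3% of all measured coding genes. Relative to the mean of the 6 libraries the median of the higher genes was 0.19 in WT replicate 1 and 0.15 in *ecl3*Δ replicate 1, then 0.04 in *ecl3*Δ replicate 2, -0.11 in *ecl3*Δ replicate 3, -0.16 in WT replicate 2 and -0.19 in WT replicate 3. Medians of the lower genes ran from -0.06 in WT replicate 1 to 0.06 in WT replicate 3. Each of these 6 libraries enters the mean with which it is compared.

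In *ecl123*Δ replicates 1 and 2 the higher genes were below the 6 libraries, with medians of -0.31 and -0.30, while in replicate 3 the median was 0.61. The lower genes had medians of 0.08 and 0.04 in replicates 1 and 2 and -0.97 in replicate 3. For 38 of the 68 higher genes both replicates lay below all 6 WT and *ecl3*Δ libraries, as they did for 17.5% of measured coding genes, and for 9 of the 33 lower genes both lay above all 6, against 9.53%. The rule favours genes that are low, or high, in these 2 replicates, so these counts are a description.

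**Figure D5:**
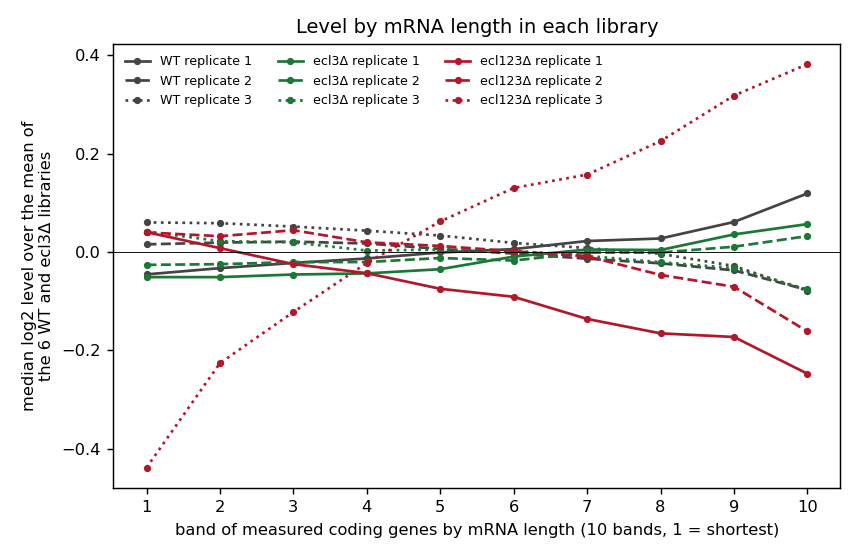
Median log2 level over the mean of the 6 WT and *ecl3*Δ libraries (vertical axis) for coding genes in 10 bands by mRNA length (horizontal axis, 1 being the shortest) in each library. *ecl123*Δ replicate 3 runs from -0.44 to 0.38, and the other 8 libraries stay between -0.25 and 0.12.

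The length trend had a size and a direction in every library. Relative to the mean of the 6 WT and *ecl3*Δ libraries, the median level of the longest minus that of the shortest band was 0.82 in *ecl123*Δ replicate 3. In *ecl123*Δ replicates 1 and 2 it was -0.29 and -0.20, that is, in the opposite direction. The 6 others had 0.16, -0.09 and -0.14 in WT replicates 1, 2 and 3 and 0.11, 0.06 and -0.12 in *ecl3*Δ replicates 1, 2 and 3. Directly between *ecl123*Δ replicates 1 and 2 the difference was -0.08. The libraries with a positive trend, WT replicate 1 and *ecl3*Δ replicates 1 and 2, were also those in which the higher genes had medians above 0.

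Applied to each other library against the 2 remaining ones of its strain, the same rule took fewer genes in total each time. It took 8 higher and 1 lower coding genes in WT replicate 1 (0.172% and 0.0214%), 0 and 2 in WT replicate 2 (0% and 0.0429%) and none in WT replicate 3. In *ecl3*Δ it took 1 and 12 in replicate 1 (0.0214% and 0.257%), 76 and 1 in replicate 2 (1.63% and 0.0214%) and 1 and 2 in replicate 3 (0.0214% and 0.0428%). In *ecl123*Δ it took 3 and 3 in replicate 1 (0.0643% each) and 2 and 30 in replicate 2 (0.0428% and 0.643%). The 76 genes of *ecl3*Δ replicate 2 had a median mRNA of 1732 nt, near the 1746 nt of all coding genes, and shared 1 gene with the 68, which is 1.32% of the former and 1.47% of the latter. That gene, *pvg5*, was at 16.6, 12.5 and 13.2 CPM in WT, 10.1, 18.5 and 9.61 CPM in *ecl3*Δ and 9.43, 6.45 and 19.1 CPM in *ecl123*Δ. The 30 lower genes of *ecl123*Δ replicate 2 included *fhn1* and *git5* of the 68 (6.67% and 2.94%), and since that replicate is a comparator in both rules the overlap is only a description. *git5* was at 14.4, 10.8 and 13.9 CPM in WT, 9.005, 14.4 and 9.57 CPM in *ecl3*Δ and 9.95, 5.04 and 18.9 CPM in *ecl123*Δ, so for these genes all 3 *ecl123*Δ libraries differed from one another.

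The *ecl123*Δ strain as a whole was then set against WT. The rule used the *ecl123*Δ libraries, so these values are given as a description. In a fit to all 9 libraries (edgeR, adjusted p of at most 0.05, 2-fold, mean normalized count of 100) 37 of 5019 coding genes were called (0.737%), 14 higher (0.279%) and 23 lower (0.458%), and none of the 101. At an unadjusted p under 0.05 there were 4 of the 101 and 997 coding genes (19.9%), and DESeq2 called 89 coding genes (1.74%). The 4 were *mpc2*, *SPAC24H6.13*, *SPBC887.17* and *rsn1*, with log2 fold changes of 0.68, 0.73, 1.04 and -1.06. DESeq2 called 2 of the 101, *SPBC887.17* (adjusted p 0.00885) and *rsn1* (adjusted p 0.0219). The median log2 fold change was 0.12 for the higher genes and -0.19 for the lower genes. Without *ecl123*Δ replicate 3 the medians were -0.26 and 0.09, so the direction of both groups turned, 28 coding genes were called (0.557%), and 1 of the 101 was called, *rsn1*, with a log2 fold change of -1.49.

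*SPBC887.17* was at 78.6, 68.4 and 60.3 CPM in WT, 137, 59.2 and 104 CPM in *ecl3*Δ and 114, 109.6 and 199 CPM in *ecl123*Δ. WT libraries and *ecl3*Δ replicate 2 were the lowest, all 3 *ecl123*Δ libraries were above WT, and replicate 3 was the highest. For *bgs4*, *tor1* and *chc1* above, the strain mean of *ecl123*Δ hid 2 libraries below WT and 1 above it.

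The genes closest to the limit illustrate how it cut a continuous range. Just inside were *ubr11*, *rga2* and *SPAC24B11.07c*, whose smaller log2 ratios were all 0.801, and just outside *rmp1* (0.798), *SPBC713.07c* (0.797) and *sec16* (0.797). Among the lower genes *rpl3801* (-0.804), *rpp202* (-0.806) and *rpl3703* (-0.807) were just inside, and *SPAC1B3.20* (-0.795), *tim8* (-0.795) and *his3* (-0.794) just outside. The mRNA of *rmp1* (705 nt) was within the range of the higher genes (527 to 11069 nt) but below their interquartile range. That annotated for *his3* (1356 nt) was longer than any of the lower genes (up to 1172 nt). All strains carried *his3-D1*, so the annotated length may not apply to what was counted over *his3*.

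Overlapping transcripts could bear on some counts. In the RefSeq annotation 64 of the 68 higher and 26 of the 33 lower genes overlap another annotated gene on the opposite strand, and 7 and 1 overlap one on the same strand. Overlaps were counted for the 101 genes only. With no share over all coding genes beside them, these counts are not read as a trait of the 101. The library kit kept strand information, but the strand setting used in counting is not given in the sources used here, so the part of such reads was not tested. None of the 101 genes had more than 10% of its 51-base windows repeated elsewhere in the genome, and the smallest count of any of them in any library was 125. The pair *bgs3* and *rps3001* lie next to each other in the annotation, 1 higher and 1 lower, as do *fhn1* and *SPBC1685.17*.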

How the data were processed

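Stranded poly(A)+ libraries were prepared from log-phase cultures and sequenced as paired ends. According to the study's methods and the submitters' processing notes, the authors aligned reads to genome build ASM294v2 with HISAT2 2.1.0 and made the deposited read counts per gene with HTSeq 0.10.0. The counts are raw whole numbers for 6988 genes, and the authors' tables of fold changes and p-values were not used. CPM were computed by the column sum and log2 ratios on log2(CPM + 1), which understates the change of low genes. Names (6836 matched), products, spliced mRNA lengths, gene order and overlaps between genes came from RefSeq's annotation of ASM294v3, and none of its coordinates is printed. The members and gene lists were chosen with earlier results of these data known. Named genes are the 12 with the largest smaller ratio in each direction, up to 4 of each list or class, the 3 nearest inside and outside each limit and any called in *ecl3*Δ against WT. Others, such as paralogs and partners, were chosen after their values were seen. Lists of genes and classes by annotated product were described by counts and medians.

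Strains were compared with edgeR 4.0.16 under R 4.3.3 (TMM, filterByExpr, quasi-likelihood test, Benjamini-Hochberg adjustment over all genes tested), tested on simulated data first, with DESeq2 1.42.0 as an alternative. The *ecl3*Δ comparison used 6 libraries and no *ecl123*Δ library. Alternatives changed the scaling, pseudocount, minimum level, limit, filter, tool, call limits and libraries. The depth of 23254907 to 34871124 counts per library left at least 125 counts for each of the 101 genes in each library.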

Additional observations from a re-analysis of the deposited data

How the results depend on the processing

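The scaling set how many genes passed the limit. The median ratio of all measured coding genes was 0.12 by column sum, 0.07 by TMM and 0.08 by RLE, a shift common to all genes. With TMM 38 higher genes passed (all among the 68) and with RLE 44, while the lower genes were 44 and 38, including all 33. A pseudocount of 5 left 41 higher genes, a limit of 1.0 left 9 higher and 13 lower genes, and a limit of 0.6 gave 324 and 131. Comparing with only 1 of the other *ecl123*Δ replicates, an alternative added after seeing the data, gave 172 to 174 higher and 52 to 56 lower genes. Ratios relative to genes of similar length, also added then, gave 28 and 7.

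For *ecl3*Δ against WT the count of called coding genes was 0 under every alternative except leaving out a replicate, where it ranged from 0 to 42, and it was 0 among the 101 genes throughout. For *ecl123*Δ against WT the count of called coding genes moved from 37 to 81 with only the 6 libraries of these strains, 89 with DESeq2 and 60 with adjusted p only, and ranged from 1 to 88 when a replicate was left out. It was 1 without WT replicate 1 or *ecl123*Δ replicate 1, 2 without WT replicate 2, WT replicate 3 or *ecl3*Δ replicate 3, 59 without *ecl123*Δ replicate 2, 66 without *ecl3*Δ replicate 1 and 88 without *ecl3*Δ replicate 2. Among the 101 genes 1 was called with 6 libraries (*SPBC887.17*), 2 with DESeq2, and 0 to 1 when a replicate was left out. The cause was not tested. Whether replicate numbers pair the libraries was not settled. Deviations of same-numbered libraries from their strain means correlated by 0.36, -0.06 and 0.27 between WT and *ecl3*Δ and by -0.17, 0.28 and -0.41 between WT and *ecl123*Δ. Between *ecl3*Δ and *ecl123*Δ they correlated by -0.05, -0.08 and -0.33. The 3 deviations of a strain depend on one another, so these values cannot decide it. With the replicate block 0 coding genes and 0 of the 101 were called for *ecl3*Δ, and 48 and 0 for *ecl123*Δ.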
